A study of Mus musculus with 17 samples.

Results

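Plasminogen activation and coagulation were followed through 9 genes in bronchoalveolar lavage cells, which are rinsed out of the air spaces with saline and are mostly alveolar macrophages in a healthy mouse. The genes were Plau, Plaur, Serpinb2, Anxa2 and S100a10 on the plasminogen side and F3, F7, F10 and Tfpi on the coagulation side. Every probe set (a group of probes read as 1 value) whose annotation named exactly 1 of these genes was taken, which gave 19 of the 45101 probe sets of the Affymetrix Mouse430_2 array. Of these, 17 exceeded the 40th percentile of their own array on at least 6 arrays and were tested, beside 29550 probe sets in all. They covered 8 of the 9 genes, beside 13390 genes in all, the brightest probe set standing for a gene. Plau had 2 probe sets, Anxa2, S100a10 and F10 had 3 each, Tfpi had 4, and the other genes had 1 each.

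Urokinase, encoded by Plau, cuts plasminogen to plasmin, the protease that dissolves fibrin and degrades matrix. Its receptor holds it on the cell surface, annexin A2 with S100A10 holds plasminogen there, and Serpinb2 inhibits urokinase. Coagulation starts when tissue factor (F3) binds factor VII, the complex activates factor X, and tissue factor pathway inhibitor (Tfpi) blocks both steps. The liver makes most of the clotting factors of plasma, and macrophages are known to make factors VII and X as well.

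The mice were of the inbred A/J strain, and the lavage cells came either from untreated mice of matched age (6 arrays, control) or from mice that had received urethane, a chemical carcinogen that causes lung tumours in A/J mice (11 arrays, urethane). The age and the urethane dose and interval are not given in the sources used here. The description of every sample names normal lung tissue, while its title and source name lavage, and the title and source were followed. The arrays are named by the numbers in their labels, control 6_13 carrying 2 of them, and nothing states that every number stands for its own mouse. The p-values therefore reflect only the spread between samples, which may be partly technical. The arrays were scanned on 2 days, each with its own chip lot: 2 controls with 5 urethane arrays on scan day 1, and 4 controls with 6 urethane arrays on scan day 2.

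The deposited signals were linear intensity values, with a trimmed mean of 500 on every array. The 20th percentile signal, a measure of the dim end of an array, ran from 15.7 to 28.4 in controls and from 9.49 to 66.2 after urethane, with urethane 33, 36 and 35 highest. On the log2 scale it was lower after urethane on scan day 1 (difference -0.85) and higher on scan day 2 (difference 0.40). All 7 alveolar macrophage markers measured lay above the 40th percentile on all 17 arrays. The summed signal of 8 airway epithelial markers ran from 15466 to 35549.8 in controls and from 5634 to 10705 after urethane, and 5 of the 8 fell. Other markers moved in the same comparison. The macrophage markers Fabp4 (1.03, limma adjusted p = 8.96e-04) and Car4 (0.96, limma adjusted p = 0.0217) rose in log2 signal, 2 of the 7. Of 4 T cell markers measured, Cd3d (1.84, limma adjusted p = 0.0389) and Il7r (1.67, limma adjusted p = 0.0184) rose, and their summed signal ran from 268 to 3002 in controls and from 1135 to 4055 after urethane. Among 6 neutrophil markers tested S100a8 rose (1.73, limma adjusted p = 0.0312). The other 5 were not called, and of them only Ltf was lower (-0.76, limma adjusted p = 0.594). Among 6 of monocytes and interstitial macrophages Cx3cr1 fell (-1.57, limma adjusted p = 0.0308). The other 5 of that list were not called, and only Ccr2 was higher (0.34, limma adjusted p = 0.557). Scan day 1 alone gave Cx3cr1 a value of -0.24 (limma adjusted p = 0.634), against -2.39 with scan day 2 alone (limma adjusted p = 0.00782). The gap between the days was not called (limma adjusted p = 0.156). The part of these cell types in the member values was not tested. In a mixed sample, fewer cells of a type and less RNA per cell cannot be told apart. The number of arrays limits the precision of every value.

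Promoter windows of RefSeq (assembly GRCm38.p6, 250 bases before to 50 after a start site) were given for 7 of the 9 genes, in 9 windows, without Plau and S100a10. Those of F7, F10 and Tfpi are printed because F7 and F10 lie next to each other and were the members called higher within scan day 1, and because Tfpi was the member gene called lower over all arrays. F7 lies at chr8:13025506-13035809 and F10 at chr8:13037308-13056676, on the same strand, 1498 bases apart with 0 genes between them. Tfpi lies at chr2:84432855-84476775 on the minus strand and has a pair of start sites in the table. Coordinates of all members are those of the RefSeq gene records in GRCm38.p6. The sequences run 5′ to 3′, and capitals mark matches on either strand to the TATA box (TATAAA), the GC box (GGGCGG), the PU.1 core (GAGGAA), AP-1 (TGANTCA) and the nuclear receptor half-site (AGGTCA).
F7, chr8:13025784-13026083, plus strand: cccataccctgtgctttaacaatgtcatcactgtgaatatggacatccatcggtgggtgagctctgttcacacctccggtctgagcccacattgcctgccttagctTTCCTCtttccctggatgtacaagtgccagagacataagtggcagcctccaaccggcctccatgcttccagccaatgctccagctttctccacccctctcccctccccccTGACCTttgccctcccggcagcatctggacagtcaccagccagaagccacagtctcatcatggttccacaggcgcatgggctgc
F10, chr8:13037058-13037357, plus strand: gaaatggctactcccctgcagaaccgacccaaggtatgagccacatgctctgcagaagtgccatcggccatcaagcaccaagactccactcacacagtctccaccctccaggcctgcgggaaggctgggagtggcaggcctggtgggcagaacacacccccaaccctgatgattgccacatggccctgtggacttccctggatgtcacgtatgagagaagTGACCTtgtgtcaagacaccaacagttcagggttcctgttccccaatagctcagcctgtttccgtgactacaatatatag
Tfpi, inner start, chr2:84474125-84474424, minus strand: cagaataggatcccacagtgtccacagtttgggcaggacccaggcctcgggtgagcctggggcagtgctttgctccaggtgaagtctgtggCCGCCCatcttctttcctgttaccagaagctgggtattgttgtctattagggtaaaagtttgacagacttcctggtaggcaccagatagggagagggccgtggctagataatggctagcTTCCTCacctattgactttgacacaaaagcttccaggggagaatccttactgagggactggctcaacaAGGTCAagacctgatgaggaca
Tfpi, outer start, chr2:84476710-84477009, minus strand: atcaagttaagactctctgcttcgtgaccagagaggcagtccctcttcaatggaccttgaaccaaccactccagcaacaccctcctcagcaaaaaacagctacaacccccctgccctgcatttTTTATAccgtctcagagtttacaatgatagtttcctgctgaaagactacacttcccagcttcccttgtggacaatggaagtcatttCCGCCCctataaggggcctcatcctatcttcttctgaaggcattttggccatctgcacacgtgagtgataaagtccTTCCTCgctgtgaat
The half-site, written TGACCT on the plus strand, began 34 bases before the F7 start site and 30 bases before the F10 start site. It also lay 28 bases after the inner Tfpi start site, there as AGGTCA. It occurred in 16.3% of the 32851 windows of this length in the table. The F7 window also held the PU.1 core 144 bases before the start (28.3% of all windows hold it), and neither the F7 nor the F10 window held a TATA box (13.6%) or a GC box (35.7%). AP-1 letters, in 7.81% of all windows, were found in the windows of Plaur, Serpinb2, Anxa2 and F3 and in none of the windows of F7, F10 or Tfpi. The PU.1 core was also in the Plaur window and in both Tfpi windows. A match describes letters and does not show that a factor binds.

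Of the 8 member genes tested, 1 passed the threshold of an adjusted p of 0.05 (limma, Benjamini-Hochberg adjustment over all genes), Tfpi, which was lower after urethane. Which gene was called depended on the probe set that stood for it. With the mean of all probe sets of a gene, S100a10 was called instead (-0.40, limma adjusted p = 0.00519) and Tfpi was not, and likewise with the probe set of highest variance (S100a10 -0.79, limma adjusted p = 0.00495). The background was 3.14% of 13390 genes in either direction, 1.14% lower and 2.00% higher. Before adjustment 5 of the 8 had a p under 0.05, beside 1963 of all genes. Over probe sets 1 of 17 was called, the S100a10 probe set 1439348_at, which was lower, against a background of 1.58% of 29550 probe sets, 0.606% lower and 0.971% higher. At an unadjusted p under 0.05 there were 8 of 17, beside 3680 of all probe sets. The groups did not overlap at 2 of the 17 probe sets, beside 0.315% of all probe sets. The median log2 difference, urethane minus control, was -0.03 over the 8 genes and -0.03 over all genes, and 4 of the 8 were positive.

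**Figure D1:**
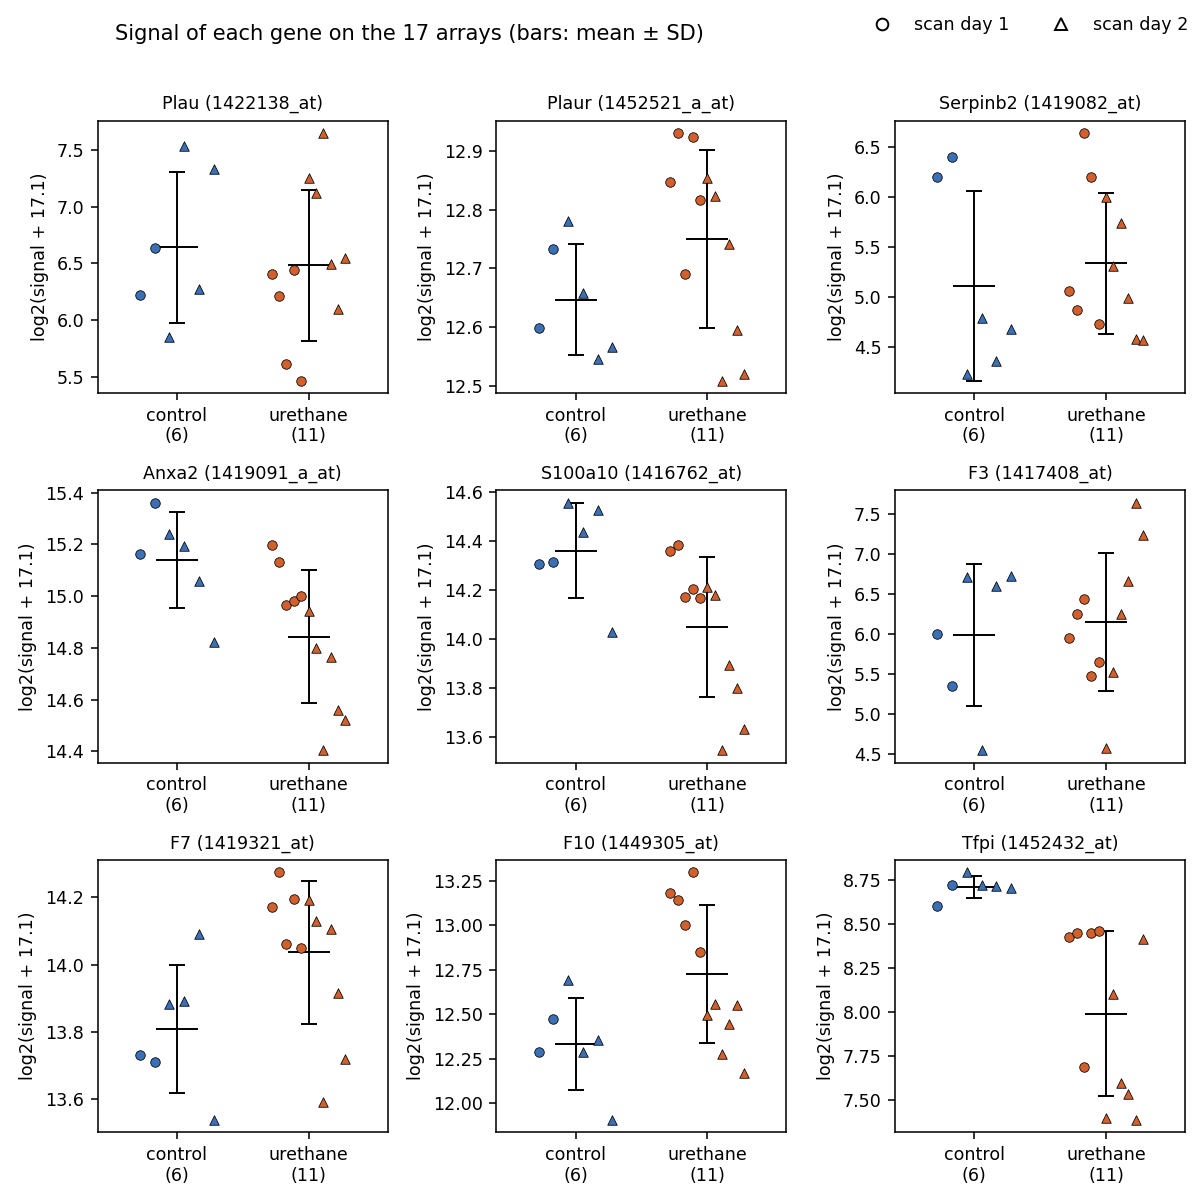
The y axis of each panel is the log2 of the signal plus the pseudocount 17.1 for the brightest probe set of a member gene, with 1 point per array, circles for scan day 1 and triangles for scan day 2, and bars for the mean ± SD of the 6 control and 11 urethane arrays. The Tfpi points of the 11 urethane arrays all lie below those of the 6 controls, and the points of the 2 groups overlap in the other panels.

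Plau, the activator (chr14:20836662-20843388), was dim in both groups. Probe set 1422138_at had a control signal of 40.6 to 168 with a median of 71.4, and a urethane signal of 27.3 to 183 with a median of 69.9. The groups overlapped almost wholly, and only 4 control and 7 urethane arrays exceeded the 40th percentile. In log2 units the control mean was 6.64 ± 0.66 (SD, n = 6) and the urethane mean 6.48 ± 0.66 (SD, n = 11), a difference of -0.16 (SE 0.35, limma adjusted p = 0.892), with a 95% interval of -0.88 to 0.56. The second probe set, 1422139_at, gave a difference of 0.29 (SE 0.39, limma adjusted p = 0.848). The Plau probe sets thus had opposite signs, and over the 17 arrays, after the mean of each group and scan day was subtracted, they correlated at r = -0.56.

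Plaur, the urokinase receptor (chr7:24460937-24475970), had a control signal of 5963 to 7017 with a median of 6316. After urethane it ran from 5813 to 7790.3 with a median of 7196. The groups overlapped, with 6 urethane arrays above every control and 2 below every control. The difference was 0.10 (SE 0.08, limma adjusted p = 0.623), with a 95% interval of -0.06 to 0.27. Within the days it was 0.18 (scan day 1) and 0.04 (scan day 2).

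Serpinb2, the serpin known as plasminogen activator inhibitor 2 (chr1:107500892-107525600), was not tested, because 1 control and 2 urethane arrays exceeded the 40th percentile. The control signals were 56.6 and 67.8 on scan day 1 and from 1.70 to 10.5 on scan day 2. Those after urethane ran from 9.52 to 83.0 on scan day 1 and from 6.6 to 47.2 on scan day 2. The 2 controls of scan day 1 were thus far above the 4 of scan day 2. The urethane arrays ran from 6.6 to 83.0, most of them in the gap between these controls.

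Anxa2 (chr9:69453683-69491792) encodes annexin A2, which carries S100A10 and plasminogen at the cell surface. Its probe set 1419091_a_at read 28972 to 42089.8 in controls, median 37026, and 21667 to 37539 after urethane, median 31493. No urethane array exceeded the highest control and 5 lay below the lowest. The log2 difference was -0.30 (SE 0.12, limma adjusted p = 0.212), with 10 of 11 urethane arrays below the control mean. After quantile normalization it was -0.14 (limma adjusted p = 0.189). Blocked by scan day it was -0.34 (SE 0.09, limma adjusted p = 0.0230), beside 7.75% of genes called in that fit, and within days it was -0.21 and -0.41. Probe set 1437692_x_at, whose suffix marks probes that may also bind other transcripts, gave -0.13 (SE 0.27, limma adjusted p = 0.908), and it is the Anxa2 probe set of highest variance. Over the 17 arrays, centred within group and scan day, it correlated with 1419091_a_at at r = -0.74. Probe set 1437691_at exceeded the 40th percentile on 0 arrays, with signals up to 35.8, and was not tested.

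S100a10 (chr3:93555117-93564645), the partner of annexin A2 that binds plasminogen, differed between its 3 probe sets. Probe set 1439348_at read 892 to 1357 in controls with a median of 1068, and 445 to 849.7 after urethane with a median of 632. Every urethane array lay below every control, within each scan day and across them. The mean log2 signal of controls was 10.10 ± 0.24 (SD, n = 6) and that of urethane arrays 9.31 ± 0.30 (SD, n = 11), a difference of -0.79 (SE 0.14, 95% interval -1.08 to -0.49, limma adjusted p = 0.00498). In the fit blocked by scan day it fell by 0.73 (limma adjusted p = 1.41e-04), and within the days by 0.79 (scan day 1) and 0.70 (scan day 2). The probe set was called in all 33 alternative settings tried, with differences from -0.85 to -0.70. Those that only changed which probe sets stand for a gene left this fit as it was.

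The brightest S100a10 probe set, 1416762_at, read 16707 to 24087 in controls, median 21256, and 11957 to 21341 after urethane, median 18423. The ranges overlapped, with 4 urethane arrays below every control. Its difference was -0.31 (SE 0.12, 95% interval -0.57 to -0.05, limma adjusted p = 0.217), close to 0 on scan day 1 (-0.05) and -0.51 on scan day 2. Probe set 1456642_x_at read 10958 to 19886 in controls and 10241 to 17864 after urethane, a difference of -0.09 (SE 0.12, limma adjusted p = 0.838). Across the 17 arrays, centred within group and scan day, 1439348_at correlated with 1416762_at at r = 0.15 and with 1456642_x_at at r = -0.19. The gene S100a10 was called in 4 of the 33 alternative settings. Which S100a10 transcripts the probe sets bind was not analysed here. Airway epithelial markers fell in the same comparison, and their part in the Anxa2 and S100a10 values was not tested.

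**Figure D2:**
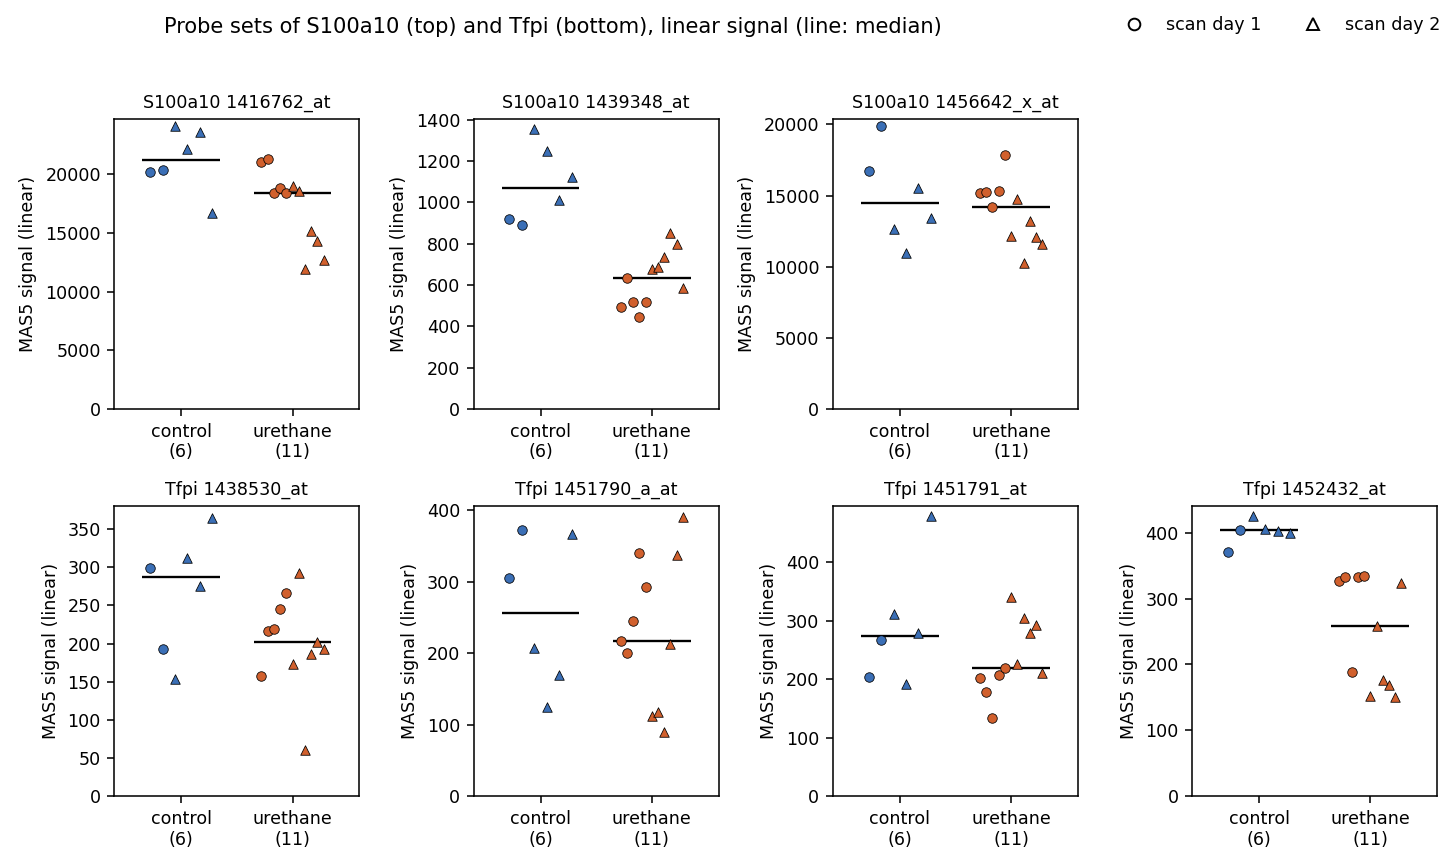
Linear signal (y axis, from 0) of the 3 probe sets of S100a10 and the 4 of Tfpi on each of the 6 control and 11 urethane arrays, circles for scan day 1 and triangles for scan day 2, with a line at each group's median. Only 1439348_at and 1452432_at have groups that do not overlap.

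On the coagulation side, F3, which encodes tissue factor, the cellular starter of clotting (chr3:121723537-121735052), was near the dim end of the arrays. The control signals ran from 6.30 to 88.2 with a median of 63.4, and those after urethane from 6.80 to 182 with a median of 58.9. The groups overlapped, and 3 control and 6 urethane arrays exceeded the 40th percentile. Its log2 difference was 0.16 (SE 0.44, limma adjusted p = 0.919), and the 95% interval of -0.75 to 1.07 spans 0 widely.

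F7, the protease that tissue factor binds, was bright on every array. The control signals ran from 11886 to 17432 with a median of 14348, and those after urethane from 12340.0 to 19795 with a median of 17607. Of the urethane arrays, 6 lay above every control and none below every control. The log2 difference was 0.23 (SE 0.11, 95% interval 0.01 to 0.45, limma adjusted p = 0.308), positive against the control mean on 9 of 11 urethane arrays. On scan day 1 the 2 controls read 13391 and 13591 and the 5 urethane arrays 16942 to 19795, with no overlap, a difference of 0.43 (limma adjusted p = 0.0103 within that day). On scan day 2 the ranges were 11886 to 17432 and 12340.0 to 18690.5, a difference of 0.09 (limma adjusted p = 0.795).

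F10, the protease that turns prothrombin into thrombin once activated, had 3 probe sets, and all were higher on average after urethane. The brightest, 1449305_at, read 3825 to 6600.3 in controls, median 5110.5, and 4588 to 10051 after urethane, median 6019. On scan day 1 the 2 controls read 4991 and 5667 and the urethane arrays 7365 to 10051. On scan day 2 the urethane range, 4588 to 6019, lay inside the control range. The difference was 0.39 (SE 0.16, limma adjusted p = 0.223), 0.71 on scan day 1 (limma adjusted p = 0.00266 within that day) and 0.11 on scan day 2 (limma adjusted p = 0.750). Probe set 1418992_at read 596 to 841 in controls and 789.7 to 1465 after urethane, with all 11 urethane arrays above the control mean and a difference of 0.50 (SE 0.14, limma adjusted p = 0.0724). Probe set 1418993_s_at, whose suffix marks probes shared by several transcripts, gave 0.45 (SE 0.12, limma adjusted p = 0.0718). Blocked by scan day, these last F10 probe sets rose by 0.46 and 0.44 (limma adjusted p = 0.0268 and 0.0348), beside 4.93% of probe sets called in that fit.

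The scan days were compared directly with the group by scan day interaction, which called 0 of the 8 member genes and 0 of the 17 member probe sets in limma, beside 0.0822% of all genes. At an unadjusted p under 0.05 it had 2 genes, F10 and S100a10, and 3 probe sets. The share of all features at that unadjusted threshold was not counted, so these counts cannot be compared with a background. The F10 difference was 0.61 smaller on scan day 2 (interaction -0.61, limma adjusted p = 0.164). Leaving out control 37, the lowest control for F10, gave -0.74 (limma adjusted p = 0.0243) and 663 genes called of all, while leaving out any other array called 0 member genes. Within scan day 1 the fit called 2 member genes, F7 and F10, both higher, beside 7.27% of all genes, and within scan day 2 it called Tfpi, beside 4.75%. Quantile normalization, which makes the arrays' signal distributions equal, called F7 (0.29, limma adjusted p = 0.0189) and not Tfpi, beside 4.18% of all genes. The 5 hepatocyte markers measured (Alb, Apoa1, Ttr, Ahsg and Apob) did not pass the filter on low signals, so liver RNA markers were near the dim end of these arrays. That F7 and F10 signals come from lavage cells themselves was not tested.

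**Figure D3:**
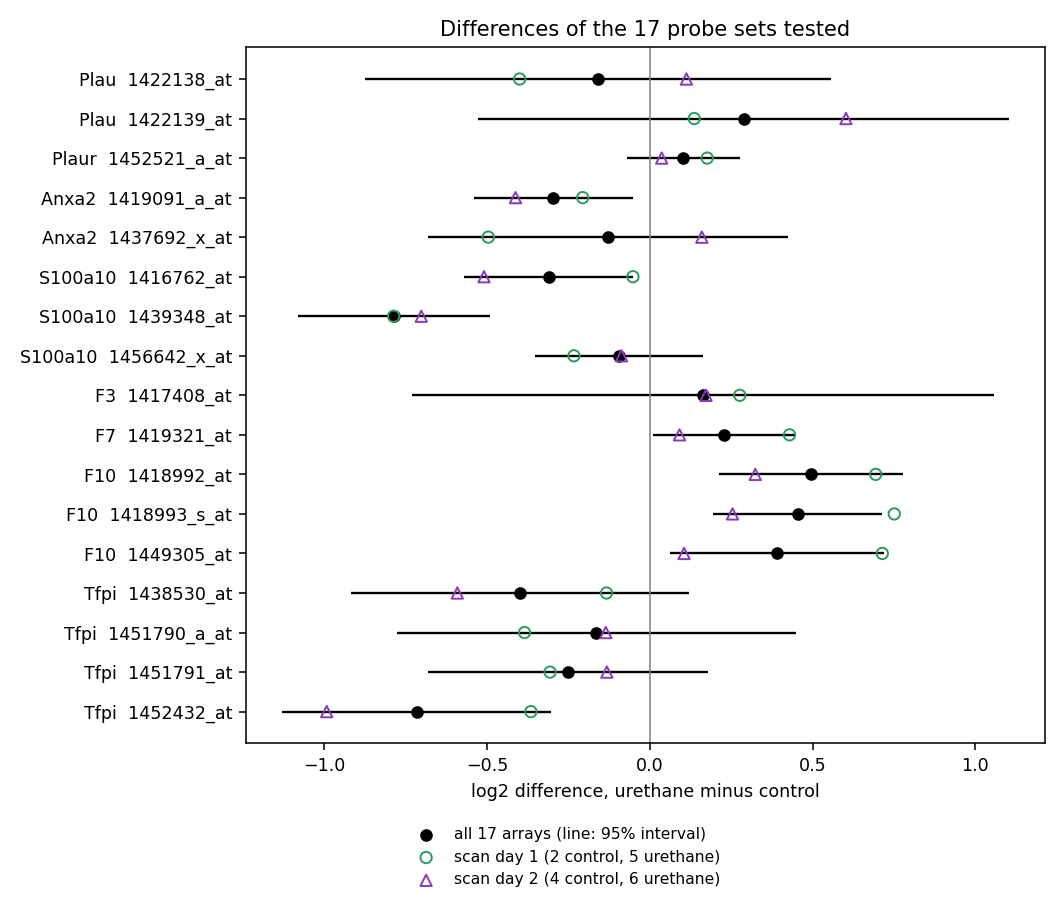
The x axis is the log2 difference, urethane minus control, for each of the 17 probe sets tested, with filled points and 95% intervals for all 17 arrays, open circles for scan day 1 and open triangles for scan day 2. The F7 and F10 circles lie to the right of their triangles, and S100a10 1439348_at lies left of 0 on both days.

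Tfpi, the inhibitor of the tissue factor and factor VII complex and of activated factor X, was the 1 member gene called lower when the brightest probe sets were fitted without a block. Its brightest probe set, 1452432_at, read 370.4 to 426 in controls with a median of 403, a narrow range. After urethane it read 150.5 to 334 with a median of 258, and every urethane array lay below every control. The control mean was 8.71 ± 0.06 (SD, n = 6) and the urethane mean 7.99 ± 0.47 (SD, n = 11) in log2 signal, a difference of -0.72 (SE 0.20, 95% interval -1.12 to -0.31, limma adjusted p = 0.0466). Adjusted over probe sets rather than genes, the same values gave p = 0.0759 in limma.

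The Tfpi signals of scan day 1 were 370.4 and 404 in controls and 189 to 334 after urethane, and those of scan day 2 were 399.8 to 426 and 150.5 to 323. Within the days the difference was -0.37 and -0.99 (limma adjusted p = 0.328 and 0.0272), and blocked by scan day it was -0.76 (limma adjusted p = 0.0100). The call was lost when any 1 of 12 arrays was left out, each of the 6 controls and urethane 7, 31, 32, 33, 34 and 35, with limma adjusted p from 0.0592 to 0.108, while the difference stayed between -0.76 and -0.66. It was also lost with quantile normalization (-0.78, limma adjusted p = 0.103) with the mean of all Tfpi probe sets (-0.38, limma adjusted p = 0.221) and with the Tfpi probe set of highest variance (1451790_a_at, -0.16, limma adjusted p = 0.918). Without a filter, without a variance trend and without urethane 33, 35 and 36 together the limma adjusted p was 0.0720, 0.0649 and 0.0634.

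The other Tfpi probe sets were lower on average without passing the test. Probe set 1438530_at read 153.5 to 364 in controls and 60.0 to 292 after urethane, a difference of -0.40 (SE 0.25). Probe sets 1451790_a_at and 1451791_at gave -0.16 (SE 0.30) and -0.25 (SE 0.21), with limma adjusted p from 0.565 to 0.892 over the 3 probe sets. None of the other 3 correlated with 1452432_at above r = 0.21 over the 17 arrays. Tfpi is known to be made by endothelium, so endothelial markers are given beside it. Of 6 such markers 3 were tested and 0 were called in the pooled fit, where Cdh5, an endothelial cadherin, gave 1.33 (limma adjusted p = 0.204). Kdr gave -0.49 and Vwf 0.25 in that fit (limma adjusted p = 0.558 and 0.634). Blocked by scan day, the fit in which Tfpi was -0.76, Cdh5 rose by 1.56 (limma adjusted p = 0.00392). Kdr and Vwf gave -0.46 and 0.30 when blocked (limma adjusted p = 0.505 and 0.385). Scan day 1 alone gave a Cdh5 difference of 0.52 (limma adjusted p = 0.536) and scan day 2 alone 2.18 (limma adjusted p = 0.00114). Kdr gave -1.02 on scan day 1 and -0.13 on scan day 2 (limma adjusted p = 0.158 and 0.920). Vwf gave 0.70 and 0.05 on these days (limma adjusted p = 0.00896 and 0.937). The summed signal of the 3 markers ran from 902 to 2401 in controls and from 1477 to 3184 after urethane. Pecam1, a defining endothelial marker, exceeded the 40th percentile on 0 arrays. Of 7 platelet markers 0 were called, with sums of 1586 to 3525 in controls and 1088 to 3208 after urethane. The part of these cells in the Tfpi values was not tested.

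Member genes also varied together between arrays of the same group and scan day. Over the 17 arrays, centred within group and scan day and given without a p because the arrays share their scaling, S100a10 and F7 correlated at r = 0.92, Anxa2 and S100a10 at 0.90, Plaur and Anxa2 at 0.83, and the neighbours F7 and F10 at 0.65. After quantile normalization these were 0.81, 0.81, 0.41 and 0.47. The same arrays' log2 20th percentile signal correlated with F7 at r = -0.87, with S100a10 at -0.80, with Anxa2 at -0.69 and with Plaur at -0.67. These bright probe sets were thus lower on arrays with a high dim end. The dimmer Anxa2 probe set 1437692_x_at went the other way (r = 0.80). Urethane 33, with the highest 20th percentile, had the lowest urethane signal for Plaur, Anxa2, S100a10 (1416762_at) and F7. The probe sets whose groups did not overlap moved little with the 20th percentile, with r = 0.01 for Tfpi 1452432_at and -0.17 for S100a10 1439348_at. Centred within group and scan day, these values cannot show whether a difference between the groups follows the 20th percentile. Some whose groups overlapped also moved little with it, such as those of Plau (0.11 and -0.08) and F10 1418993_s_at (0.12). The part of the 20th percentile in the shared variation was not tested beyond these values.

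**Figure D4:**
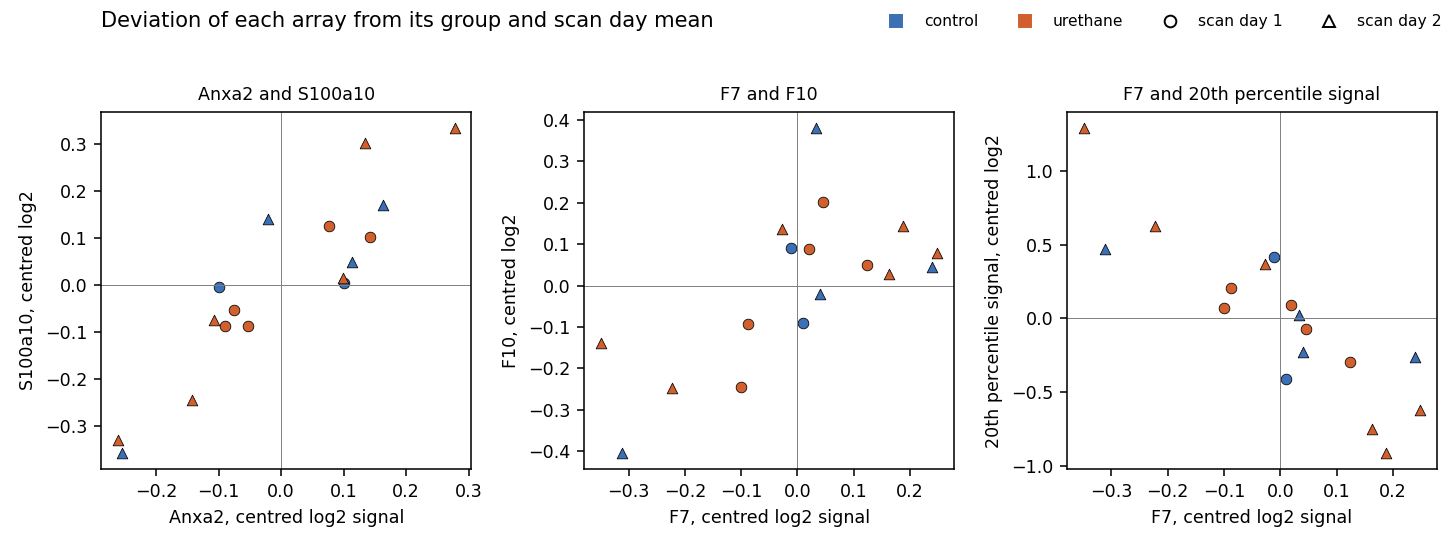
Log2 signals of the 17 arrays after the mean of each group and scan day was subtracted, for Anxa2 and S100a10, F7 and F10, and F7 and the 20th percentile signal of the array (x and y axes in log2 units), with colour for group and shape for scan day. The first 2 panels slope upwards (r = 0.90 and 0.65) and the third slopes downwards (r = -0.87).

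The genes that varied most like each member were named as the 2 of highest r among at most 6579 genes, those with an established symbol and a mean signal above the median of the tested genes. For Anxa2 they were Tmsb10 (thymosin beta-10, an actin-binding peptide; r = 0.97) and Cd9 (a tetraspanin; 0.96). For S100a10 they were Cyba, a subunit of the phagocyte NADPH oxidase (0.97), and Lamtor2 (0.97). F7 was nearest to Ypel5 (0.96) and to Ppp1ca, a catalytic subunit of protein phosphatase 1 (0.95). F10 was nearest to Hfe, the haemochromatosis protein (0.91), and Itm2c (0.89), and Plaur to Preb (0.93) and Psmc3, a proteasome subunit (0.87). The dim members had looser neighbours, from 0.77 (Mad2l1bp) to 0.83 (Irak2) for Plau and 0.82 (Sec23a) to 0.85 (Ankzf1) for F3. Tfpi reached 0.77 with Rngtt and 0.69 with Pex7. None of these 16 genes passed the test between the groups. Each r was picked as among the 2 highest of these candidates, and how high such an r runs by chance was not tested. The values for Plau, F3 and Tfpi therefore cannot show neighbours closer than chance gives. The bright F7 and S100a10 also correlated with the log2 20th percentile signal (r = -0.87 and -0.80). The part of that signal in their neighbours was not tested.

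Beyond the members, 73 further genes of both systems were followed in 4 lists, of which 50 were tested. After urethane 2 of the 50 were called, both higher, beside 3.14% of all genes in either direction and 2.00% higher. An unadjusted p under 0.05 was found for 13 of the 50, beside 1963 of the 13390 genes. Their median difference was -0.03, as over all genes. With scan day as a block 4 were called higher and 5 lower, beside 7.75% of all genes.

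Of the plasminogen activators and inhibitors 0 of 6 tested were called and 1 had an unadjusted p under 0.05, Serpinb6a, an intracellular serpin (0.26, SE 0.11, limma adjusted p = 0.227). Among the plasminogen receptors and receptor partners of urokinase, 1 of 17 was called. This was Lrpap1, the chaperone of the receptor Lrp1 that clears urokinase with its inhibitors, and it rose from 12.62 ± 0.41 (SD, n = 6) to 13.50 ± 0.38 (SD, n = 11) in log2 signal (difference 0.88, SE 0.17, limma adjusted p = 0.00595). All 11 urethane arrays lay above its control mean, and the call was kept in all 33 alternative settings. S100a6, of the same calcium-binding family as S100a10, gave -0.88 (SE 0.25, limma adjusted p = 0.0583), and -0.78 when blocked by scan day (limma adjusted p = 0.00500). S100a4, also of that family, gave -1.08 (SE 0.36, limma adjusted p = 0.116), and -0.93 when blocked by scan day (limma adjusted p = 0.0139). In that blocked fit 3 genes of this list were called higher and 4 lower, beside 7.75% of all genes. S100a6 and S100a4 were chosen after their values were seen.

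Of the coagulation factors and cofactors 1 of 13 was called, Mcfd2, which helps to carry factors V and VIII out of the endoplasmic reticulum. It rose by 0.42 (SE 0.09, limma adjusted p = 0.00641), with all 11 urethane arrays above the control mean. The Mcfd2 call was lost within scan day 2 (0.39, limma adjusted p = 0.0791) and in the fit with the array number as a replicate block (0.38, limma adjusted p = 0.0524). The fibrinogen genes Fga, Fgb and Fgg exceeded the 40th percentile on 0 arrays. Among the anticoagulants and thrombin receptors 0 of 14 were called and 2 had an unadjusted p under 0.05, the smaller in Procr, the protein C receptor (0.50, SE 0.16, limma adjusted p = 0.104, higher on 11 of 11 urethane arrays than the control mean).

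**Figure D5:**
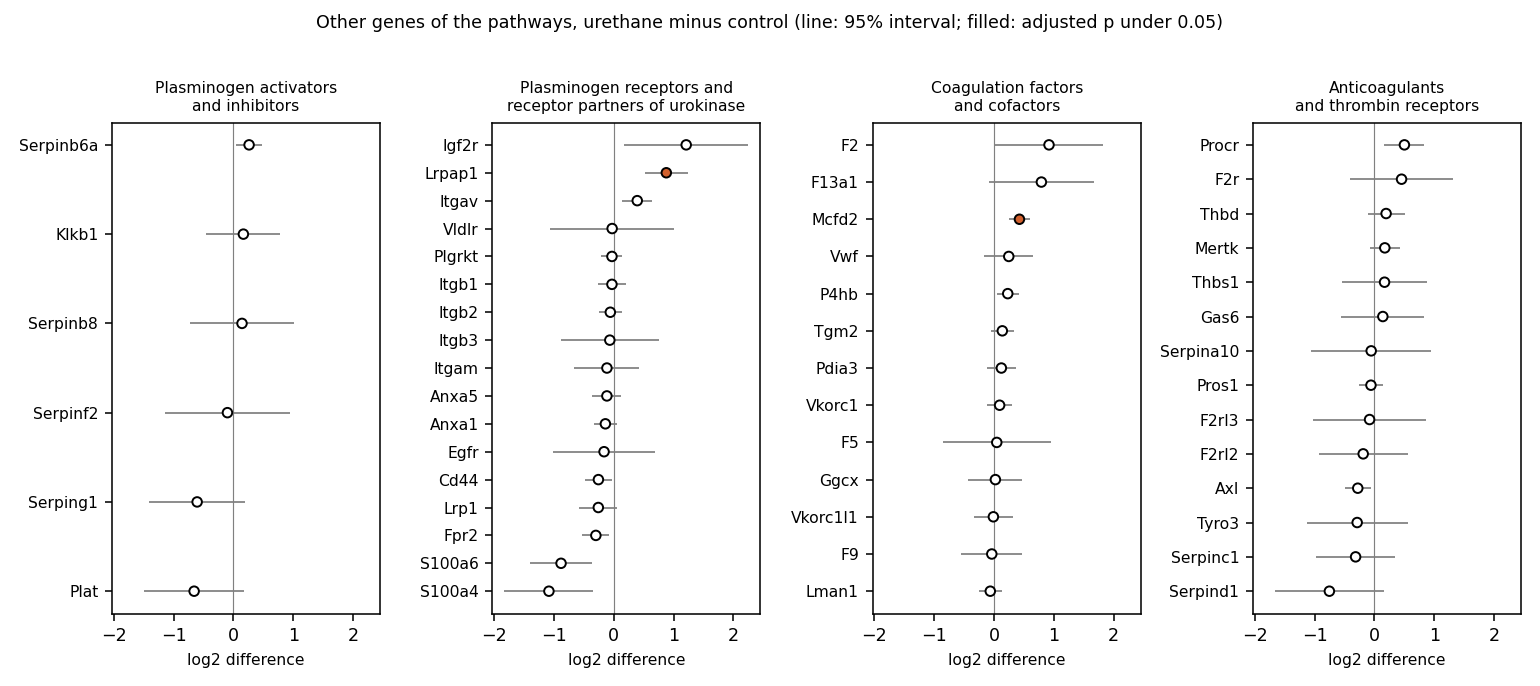
The x axis is the log2 difference, urethane minus control, with its 95% interval for each of the 50 pathway genes tested, in 4 panels by list. Filled points mark the 2 genes with a limma adjusted p under 0.05, Lrpap1 and Mcfd2, both to the right of 0.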

How the data were processed

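RNA of bronchoalveolar lavage cells was measured on 17 Mouse430_2 arrays. The deposited values are linear probe set intensity values, made by the authors with MAS5 per the submitters' processing notes, which give no version. Trimmed by 2% at both ends, the mean intensity was 500 on every deposited array, and this scaling was kept. The scan description files (other text) were used for scan day and chip lot only, per the file headers.

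The member genes, gene lists and tests were chosen with earlier results of these data known. To each signal 17.1 was added before log2 (the 20th percentile signal of the median array), so folds of dim genes are understated. Probe sets above the 40th percentile of their array on at least 6 arrays were kept. Of the 45101 probe sets, 34945 carried a single gene symbol, and only these were named (932 carried several and 9160 none). Of the tested genes 13321 matched RefSeq. The test was limma's moderated test (version 3.58.1, R 4.3.3; eBayes with its trend option), two-sided, adjusted by Benjamini-Hochberg over all genes or probe sets, with a threshold of 0.05. No 2 arrays held identical values. All members, every pathway gene past the threshold, or the one of smallest p in a list without any, and the 2 genes most like each member were named. S100a6 and S100a4 were named outside this rule.

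In data simulated for urethane against control over 13390 genes, a 1.5-fold change was recovered by limma in 35% of cases and a 2-fold change in 62%. There, 100 genes were changed at each fold, and the noise was drawn independently for each gene. The variation that genes share between the real arrays was not simulated, so these shares may differ in the real data. Alternatives changed the scaling, pseudocount, filter, probe set choice, variance model, blocks, covariates and arrays. Figures were drawn with matplotlib 3.10.9.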

Additional observations from a re-analysis of the deposited data

How the results depend on the processing

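Values were recomputed under 14 planned settings, 17 that left out 1 array, and 2 chosen after seeing the data (without urethane 33, 35 and 36, and quantile normalization with scan day as a block). The S100a10 probe set 1439348_at and the gene Lrpap1 were called in all 33, with limma adjusted p up to 0.0229 and 0.0257, the gene Mcfd2 in 31 and the Tfpi gene in 14 of 33. Settings that only changed which probe sets stand for a gene cannot alter a probe set result. The counts of genes, probe sets, member genes, member probe sets and pathway genes called were 421, 466, 1, 1 and 2 in the pooled fit, and where they changed beyond 1.5 times they were as follows. With scan day as a block they were 1038, 1456, 2, 5 and 9. With the 20th percentile signal as a covariate they were 872, 1079, 3, 6 and 5. Within scan day 1 they were 974, 1487, 2, 5 and 7, and within scan day 2 636 genes, 808 probe sets, 2 member probe sets and 5 pathway genes. Quantile normalization gave 3 member probe sets, and with scan day as a block 1265, 1733, 4, 6 and 10. Without a variance trend 250 genes, 227 probe sets and 0 member genes were called, without a filter 0 member genes, with the probe set of highest variance 205 genes, and without urethane 33, 35 and 36 3 member probe sets. Leaving out 1 array gave 218 to 634 genes, 224 to 772 probe sets, 0 to 1 member genes, 1 to 2 member probe sets and 2 to 4 pathway genes. The interaction called 11 genes, 0 with quantile normalization, pseudocount 64 or the probe set of highest variance, 2 with the mean of probe sets, 3 without a trend, and 0 to 663 with 1 array left out (663 without control 37). The correlation of F7 and F10 was 0.65, 0.47 after quantile normalization, 0.55 with the mean of probe sets and 0.50 to 0.77 with 1 array left out, lowest without control 37. The cause of these changes was not tested.

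Differences that were not called changed sign as follows. Plau turned to 0.064 with the mean of probe sets, 0.29 with that of highest variance, 0.11 on scan day 2, 0.018 after quantile normalization with the scan day block and 0.019 without control 35 (from -0.32 with other arrays left out). F3 turned to -0.17 without urethane 33, 35 and 36, and ran from -0.12 to 0.32 with 1 array left out. Anxa2 1437692_x_at turned to 0.16 on scan day 2 and ran from -0.31 to 0.039 with 1 array left out, and S100a10 1456642_x_at turned to 0.0080 without urethane 33, 35 and 36.

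The numbers 33, 35 and 36 occur in both groups. The deviations of same-numbered arrays from their group means correlated at r = -0.04, -0.18 and -0.13 over genes. Without a reference from arrays of unlike numbers, these values cannot settle whether the numbers pair arrays. In the main fit the numbers were not taken to pair arrays. A fit with the number as a replicate block, which rests on these 3 pairs, called 3024 genes, 5646 probe sets, 3 member genes, 5 member probe sets and 14 pathway genes. The urethane arrays 33, 35 and 36 had the highest 20th percentile signals of all arrays (66.2, 35 and 41.8). The controls of the same numbers had 20.8, 17.5 and 17.1. The part of this difference in the calls and signs of the replicate block was not tested. In that block Plau was 0.21, Plaur -0.12, F7 -0.21, F10 -0.11, Anxa2 1437692_x_at 1.05, Tfpi 1451790_a_at 0.46 and Tfpi 1451791_at 0.054. Of these, Anxa2 1437692_x_at was called (limma adjusted p = 0.00562), while Anxa2 1419091_a_at was called lower (-0.67, limma adjusted p = 0.00320). The dim genes Plau, F3 and Serpinb2 lay near the dim end of the arrays, which limits what their values can show.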
